A study of Homo sapiens with 12 samples.

Results

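The replication-dependent histone genes encode the linker histone H1 and the core histones H2A, H2B, H3 and H4. They were picked by symbol, as every gene with an H1-1 to H1-6, H2AC, H2BC, H3C or H4C name or an older HIST name on a probe set that carried a single gene symbol. The rule found 50 of the 14232 genes measured, namely 6 H1, 11 H2A, 13 H2B, 9 H3 and 11 H4 genes, each on 1 probe set. RefSeq lists 69 protein-coding genes with such names. The other genes with such names were not analysed here, and 3 further probe sets that carry several member symbols at once are described apart.

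Levels came from CCRF-CEM, a line of human T-cell acute leukaemia origin grown in RPMI medium with serum, on 12 whole-transcript microarrays in 4 groups of 3. AB61-treated cultures received AB61 at 250 nM for 3 h, and tubercidin-treated cultures received tubercidin at 550 nM for 3 h. Other cultures received actinomycin D at 1 nM for 3 h, and untreated cultures served as the control. Each concentration was 5 times the IC50, and the labels name no vehicle for untreated cells. Tubercidin is a deazaadenosine nucleoside, AB61 differs from it by a thienyl group on the base, while actinomycin D binds DNA and blocks transcription. The 3 arrays of a group are called biological replicates. Nothing says that they came from separate cultures, so the p-values measure only the spread between these samples. All groups are 1 cell line. Its labelled lineage was borne out by the T-cell receptor component CD3D, which averaged 12.35, 12.41, 12.37 and 12.40 after AB61, tubercidin, actinomycin D and in untreated cells. EPCAM, an epithelial marker, averaged 2.41, 2.41 and 2.41 after the same treatments and 2.39 in untreated cells. Each is 1 gene of its marker list. In untreated cells the linear signal summed to 15703 to 16608 over 13 T-lymphoblast markers. Over 14 markers of other cell types it summed to 773 to 819, so others of these 14 were brighter than EPCAM.

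Replication-dependent histone genes are transcribed mainly in S phase, when new DNA has to be packed into nucleosomes, from gene clusters that assemble a nuclear body around the factor NPAT. Their mRNAs are the main animal mRNAs without a poly(A) tail. They end in a conserved stem-loop that is bound by the protein SLBP and cut with the help of the U7 ribonucleoprotein, whose own subunits include LSM10 and LSM11. When DNA synthesis stops, these mRNAs are uridylated and degraded, so in cycling cells such as leukaemia lines their amount follows DNA replication closely. Whole-transcript labelling primes along the RNA and does not require a poly(A) tail.

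By RefSeq position, 45 of the members lie on chromosome 6, 30 in a first cluster and 15 in a second, while 4 lie on chromosome 1 and 1, H4C16, on chromosome 12. Promoter sequence, 250 bases before to 50 bases after the transcription start, was at hand for 45 of the 50 members, from RefSeq on GRCh38.p14. The sequences below belong to the H1, H2B, H3 and H4 genes with the lowest mean difference from untreated cells over the 3 treatments. H2AC12 was the H2A gene chosen by the same rule. The H1-5 window is chr6:27867539-27867838 on the minus strand, the H2BC4 window chr6:26123877-26124176 on the minus strand, the H3C1 window chr6:26020201-26020500 on the plus strand and the H4C16 window chr12:14771082-14771381 on the minus strand. Capitals mark the letters searched, on either strand: TATAAA for the TATA box, CCAAT for the box of that name, ATTTGCAT for the octamer bound by POU factors, and AAACACA for a box described in H1 promoters.
H1-5: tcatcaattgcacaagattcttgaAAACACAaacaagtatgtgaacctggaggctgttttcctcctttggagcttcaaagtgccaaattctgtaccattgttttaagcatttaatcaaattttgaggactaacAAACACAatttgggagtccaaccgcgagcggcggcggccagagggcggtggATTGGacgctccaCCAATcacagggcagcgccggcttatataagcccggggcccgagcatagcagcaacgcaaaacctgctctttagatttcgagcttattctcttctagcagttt
H2BC4: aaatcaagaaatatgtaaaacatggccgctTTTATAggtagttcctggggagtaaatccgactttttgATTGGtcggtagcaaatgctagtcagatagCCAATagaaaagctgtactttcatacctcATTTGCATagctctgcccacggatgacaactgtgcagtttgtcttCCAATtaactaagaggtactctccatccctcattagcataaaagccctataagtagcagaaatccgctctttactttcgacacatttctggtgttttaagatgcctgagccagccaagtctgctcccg
H3C1: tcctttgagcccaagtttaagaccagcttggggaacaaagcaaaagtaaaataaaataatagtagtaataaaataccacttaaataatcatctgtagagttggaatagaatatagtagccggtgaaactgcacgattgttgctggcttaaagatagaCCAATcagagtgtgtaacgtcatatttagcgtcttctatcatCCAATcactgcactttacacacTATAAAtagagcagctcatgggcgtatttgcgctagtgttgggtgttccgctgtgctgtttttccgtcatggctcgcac
H4C16: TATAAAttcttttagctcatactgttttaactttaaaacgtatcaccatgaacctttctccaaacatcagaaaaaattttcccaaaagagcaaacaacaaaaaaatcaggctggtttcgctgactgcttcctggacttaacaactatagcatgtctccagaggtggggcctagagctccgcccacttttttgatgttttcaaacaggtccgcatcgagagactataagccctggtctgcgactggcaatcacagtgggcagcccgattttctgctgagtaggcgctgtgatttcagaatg

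In H3C1 the TATAAA match began at position -29 relative to the start, with CCAAT matches at -93 and -51. The H1-5 window held 2 CCAAT matches, 1 on each strand, and 2 AAACACA matches. The H2BC4 window held the octamer, 3 CCAAT matches and a TATAAA match on the minus strand far upstream. The H4C16 window held only a TATAAA match at its upstream end. Over the 45 windows, TATAAA was found in 29 (64.4%), against 11.95% of the 27305 promoter windows of the same length. CCAAT was found in 39 (86.7%), against 35.7% of all windows, and the octamer in 18 (40%), against 1.80% of all windows. The octamer matches lay in 8 of 10 H2A and 10 of 13 H2B windows and in no window of an H1, H3 or H4 gene. AAACACA was found in 6 of the 45 windows, all 6 H1 genes, against 5.76% of all windows. In 7 pairs of an H2A and an H2B gene, the genes start 194 to 248 bases apart and run in opposite directions. The windows of each pair overlap, so these counts are not independent. A match describes the letters only.

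Levels are log2 values from robust multi-array average (RMA) normalization, and each describes the signal of its own probe set, so levels of different genes are not compared as amounts of RNA. The histone genes lay among the brighter probe sets. Their median level was 9.04, against 6.64 over all genes, and 34 of 50 were in the top 25% of all genes. The brightest of each type were H1-4, H2AC16, H2BC14, H3C2 and H4C13. Their means after AB61 were 12.92, 12.26, 12.71, 12.64 and 12.40, after tubercidin 12.98, 12.61, 12.97, 12.82 and 12.62, and after actinomycin D 12.92, 12.21, 12.76, 12.74 and 12.53. In untreated cells they were 13.09, 12.66, 12.69, 12.80 and 12.74. Canonical histone genes are near-identical copies of one another, so a probe set may also take up RNA of other members, and single genes are less certain than the group. Because RMA gives the arrays similar distributions, a loss common to all mRNAs would not show. Cultures with fewer cells in S phase and cells with less histone mRNA each cannot be told apart in these bulk samples.

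The arrays did not all behave alike. Correlations between arrays ranged from 0.983 to 0.996, and AB61 replicate 2 had the narrowest spread of levels, an SD of 1.83 over all genes against 1.90 to 2.00 on the others. On that array the brightest 25% of genes stood at a median of -0.12 and the dimmest 25% at 0.21 relative to the untreated mean. The histone genes moved together from array to array. Over the 12 arrays, the median correlation between 2 members of their deviations from the group means was 0.59. This correlation was not computed for other genes or for genes of like signal. It is therefore not shown to be particular to the histone genes. Tubercidin replicate 2 was the extreme case, with 49 of 50 members above their group mean, and AB61 replicate 2 had 4 of 50 above theirs. Medians and counts that rest on these arrays are also given without them.

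After AB61, 47 of the 50 histone genes stood below untreated cells, with a median log2 difference of -0.30, or 0.81 times the untreated level. Over all genes the median was 0.04 and 40.4% stood below 0. All 6 H1, all 11 H2A and all 9 H3 genes stood below 0, with 11 of 13 H2B and 10 of 11 H4 genes. No histone gene passed the test after adjustment, in a limma fit over all 14232 genes (Benjamini-Hochberg adjusted p under 0.05), where 24 genes (0.169%) were called. At an unadjusted p under 0.05 in limma, 22 members (44%) were lower, against 6.25% of all genes, and 1 member, H2BC1, was higher, against 5.82%. In 19 members all 3 AB61 arrays lay below all 3 untreated arrays, against 6.18% of all genes, and in none did they all lie above, against 6.42%. The members share arrays and vary together, so these counts describe the group and are not independent calls. With array weights, an alternative whose estimation stopped before it converged, limma called 19 members (38%), against 20.1% of all genes. The counts rest strongly on AB61 replicate 2. Without it 4 members (8%) were lower at unadjusted p, against 3.93% of all genes, and the median was -0.19. By type the medians without it were -0.34 for H1, -0.24 for H2A, -0.11 for H2B, -0.19 for H3 and -0.19 for H4. Without untreated replicate 1 the count was 10 (20%), against 4.76% of all genes, and without untreated replicate 2 it was 14 (28%), against 4.52%.

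**Figure D1:**
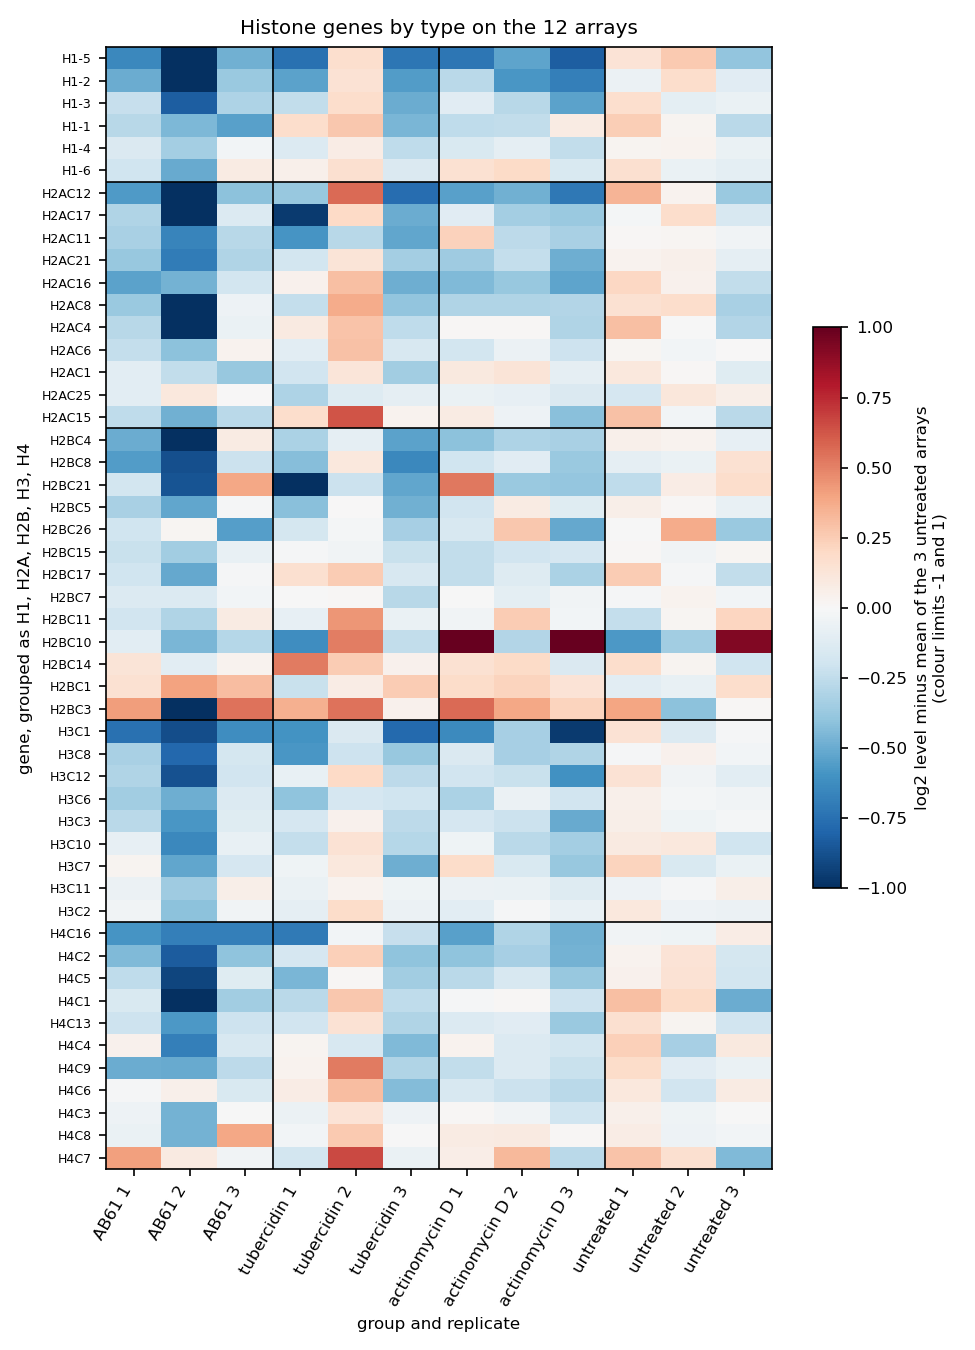
Log2 level of each of the 50 histone genes (vertical axis, grouped by type) on each of the 12 arrays (horizontal axis), minus the mean of the 3 untreated arrays, with colours limited at -1 and 1. Blue is below and red above the untreated mean, and 45 of 50 members lie below it on AB61 replicate 2 against 11 of 50 on tubercidin replicate 2.

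By array the shift was uneven. The median over the members, relative to the untreated mean, was -0.22, -0.52 and -0.14 on AB61 replicates 1, 2 and 3, and 0.07, 0.01 and -0.07 on the 3 untreated arrays. On the AB61 arrays 44, 45 and 39 members lay below the untreated mean, and on the untreated arrays 13, 24 and 37 did. All 3 AB61 arrays were thus lower than every untreated array in the median of the members, with AB61 replicate 2 far below the others. Among the 3558 genes in the top 25% by signal, where most members lie, the median log2 difference after AB61 was -0.05. The 34 members among them had a median of -0.41. Removing each array's trend with signal level left the median of all members at -0.30. AB61 was also read against the untreated array of the same replicate number, a pairing that the labels do not state. This gave medians of -0.32, -0.51 and -0.03, with 43, 48 and 29 of 50 members below 0. Over all genes the medians were 0.05, 0.06 and -0.0020, with 41.4%, 41.9% and 50.4% below 0. In replicate 3 the members (58% below 0) thus lay close to all genes.

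**Figure D2:**
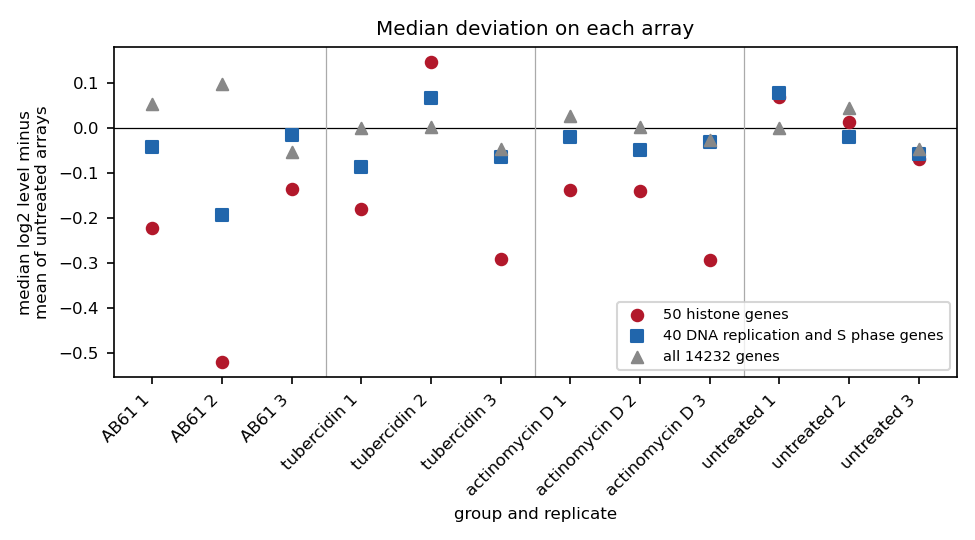
Median over the 50 histone genes (circles), 40 DNA replication and S phase genes (squares) and all 14232 genes (triangles) of the log2 level minus the untreated mean, for each array. The histone median lies at -0.52 on AB61 replicate 2, at 0.15 on tubercidin replicate 2 and between -0.07 and 0.07 on the untreated arrays.

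Linker histones, which bind the DNA between nucleosomes, stood lowest among the types after AB61, with a median of -0.44. The H2A median was close to it, at -0.42. With array weights the order was reversed, at -0.37 for H1 and -0.40 for H2A. H1-5 had levels of 11.10, 10.44 and 11.27 after AB61, 11.00, 11.92 and 11.02 after tubercidin, 11.02, 11.22 and 10.92 after actinomycin D, and 11.88, 12.01 and 11.35 in untreated cells. All AB61 and actinomycin D arrays lay below all untreated arrays, while tubercidin replicate 2 lay among the untreated ones. The log2 differences of H1-5 were -0.81, -0.43 and -0.69 after AB61, tubercidin and actinomycin D (SE 0.26), with limma adjusted p of 0.234, 0.761 and 0.407. H1-2 had levels of 9.79, 9.21 and 9.91 after AB61, 9.75, 10.43 and 9.73 after tubercidin, 10.01, 9.71 and 9.60 after actinomycin D, and 10.22, 10.46 and 10.17 in untreated cells. Again only tubercidin replicate 2 overlapped with the untreated arrays. Its differences were -0.65, -0.32 and -0.51 (SE 0.21), with limma adjusted p of 0.238, 0.814 and 0.453. H1-3 stood at -0.45, -0.19 and -0.31 after AB61, tubercidin and actinomycin D, and H1-1 at -0.42, -0.0031 and -0.14. H1-4, the brightest linker histone, stood at -0.17, -0.11 and -0.16, and H1-6, a testis-specific linker histone, at -0.21, 0.02 and 0.06. Without AB61 replicate 2 the AB61 differences of H1-3, H1-4 and H1-6 were -0.27, -0.09 and -0.06. None of these passed the test.

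Among H2A genes, which encode the core histone that pairs with H2B, the median after AB61 was -0.42. H2AC12 was the lowest of all members after AB61. Its levels were 8.96, 7.86 and 9.11 after AB61, 9.15, 10.09 and 8.76 after tubercidin, 8.98, 9.04 and 8.81 after actinomycin D, and 9.86, 9.56 and 9.15 in untreated cells. The AB61 and actinomycin D arrays all lay below the untreated arrays, by a narrow margin at the lowest untreated array, and AB61 replicate 2 was more than 1 log2 unit below the other AB61 arrays. The difference after AB61 was -0.88 (SE 0.34, limma adjusted p 0.330), and -0.49 without AB61 replicate 2. After tubercidin H2AC12 stood at -0.19, and at 0.10 without tubercidin replicate 3. After actinomycin D it stood at -0.58 (limma adjusted p 0.714). H2AC11 was a contrasting case, with 8.0, 7.66 and 8.05 after AB61, 7.73, 8.04 and 7.80 after tubercidin, 8.55, 8.06 and 8.0 after actinomycin D, and 8.34, 8.34 and 8.29 in untreated cells. Here AB61 and tubercidin arrays lay below all untreated arrays, and actinomycin D replicate 1 lay above them. Its differences were -0.42, -0.46 and -0.12 (SE 0.15), with limma adjusted p of 0.287, 0.319 and 0.999. H2AC21, a bright gene on chromosome 1, had 12.11, 11.79 and 12.19 after AB61, 12.30, 12.62 and 12.16 after tubercidin, 12.13, 12.26 and 12.003 after actinomycin D, and 12.52, 12.55 and 12.40 in untreated cells. All AB61 and all actinomycin D arrays lay below the untreated ones, and its differences were -0.46, -0.13 and -0.36 (SE 0.14), with limma adjusted p of 0.203, 0.934 and 0.408. H2AC16 stood at -0.40, -0.05 and -0.45, and H2AC17 at -0.49, -0.42 and -0.27, after AB61, tubercidin and actinomycin D.

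H2B genes had the median nearest 0 of the types after AB61, -0.22, and held 2 of the 3 members that stood above 0 after AB61 and 5 of the 9 after actinomycin D. H2BC4 had the lowest mean difference of the type over the treatments. Its levels were 9.92, 9.31 and 10.50 after AB61, 10.10, 10.33 and 9.89 after tubercidin, 10.01, 10.11 and 10.10 after actinomycin D, and 10.47, 10.45 and 10.34 in untreated cells. AB61 replicate 3 lay above every untreated array, while all tubercidin and actinomycin D arrays lay below them. The differences were -0.51, -0.31 and -0.35 (SE 0.22), with limma adjusted p of 0.387, 0.850 and 0.760. Without AB61 replicate 2 the first was -0.21, without AB61 replicate 3 it was -0.80, and without tubercidin replicate 3 the second was -0.20. H2BC8 had 8.26, 7.94 and 8.60 after AB61, 8.39, 8.92 and 8.17 after tubercidin, 8.61, 8.70 and 8.44 after actinomycin D, and 8.72, 8.75 and 8.97 in untreated cells. Its AB61 and actinomycin D arrays all lay below the untreated arrays, with differences of -0.55 and -0.23 (SE 0.19), and its difference after tubercidin was -0.32. H2BC1, a testis histone with a dim probe set, had 3.32, 3.57 and 3.48 after AB61 and 3.07, 3.10 and 3.34 in untreated cells, a difference of 0.29 (limma adjusted p 0.397). H2BC14, the brightest H2B gene, stood at 0.02 after AB61, 0.27 after tubercidin and 0.07 after actinomycin D.

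The 9 H3 genes had a median of -0.32 after AB61, and H3C1 carried the lowest values. H3C1 had levels of 9.44, 9.30 and 9.57 after AB61, 9.59, 10.05 and 9.41 after tubercidin, 9.55, 9.86 and 9.23 after actinomycin D, and 10.33, 10.05 and 10.18 in untreated cells. Every treated array lay below every untreated one, though tubercidin replicate 2 and untreated replicate 2 were nearly equal. The differences were -0.75, -0.50 and -0.64 (SE 0.18), with limma adjusted p of 0.112, 0.365 and 0.218. H3C8 was the other bright H3 gene with all arrays of each treatment below all untreated arrays, at 9.25, 8.79 and 9.40 after AB61, 8.99, 9.37 and 9.20 after tubercidin, and 9.43, 9.24 and 9.28 after actinomycin D. Its untreated levels were 9.56, 9.62 and 9.55. The differences of H3C8 were -0.43, -0.39 and -0.26 (SE 0.15), none past the test. H3C6, on a dim probe set, had the same separation with differences of -0.33, -0.26 and -0.19. H3C1, H3C6 and H3C8 were the only members fully below untreated cells after all 3 treatments. A further 14 members were so after 2 treatments, 7 after 1 and 26 after none, and the 3 treatments share the same untreated arrays. These counts were not made over all genes, so no background share stands beside them. H3C2, the brightest H3 gene, stood at -0.16, 0.01 and -0.06, and after AB61 at -0.04 without AB61 replicate 2.

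H4 genes, most of which encode the same protein, had a median of -0.33 after AB61. H4C16 came closest to the threshold of all members, and its probe set is dim, ranked 10943 of the 14232 genes by level. It had 4.95, 4.86 and 4.86 after AB61, 4.83, 5.51 and 5.31 after tubercidin, 5.00, 5.24 and 5.06 after actinomycin D, and 5.51, 5.4999 and 5.61 in untreated cells. The AB61 arrays lay close together and well below the untreated arrays, and the tubercidin arrays were spread across both ranges. The difference after AB61 was -0.65 (SE 0.15, limma adjusted p 0.102). With the replicate number as a block over all 12 arrays, its limma adjusted p was 0.0429, the only member called in that fit, and without tubercidin replicate 1 it was 0.0432. Over the alternatives its limma adjusted p ranged from 0.00822 with array weights to 0.278 without AB61 replicate 2. After tubercidin H4C16 stood at -0.32 (limma adjusted p 0.547), or -0.13 without tubercidin replicate 1, and after actinomycin D at -0.44 (limma adjusted p 0.323). H4C2 had 9.43, 9.04 and 9.47 after AB61, 9.70, 10.11 and 9.47 after tubercidin, 9.47, 9.54 and 9.39 after actinomycin D, and 9.91, 10.00 and 9.70 in untreated cells. Its AB61 and actinomycin D arrays all lay below the untreated arrays, with differences of -0.56 and -0.40 (SE 0.16, limma adjusted p 0.191 and 0.438), while after tubercidin it stood at -0.11. H4C1 stood at -0.65, -0.08 and -0.07 after AB61, tubercidin and actinomycin D, and its AB61 value follows a level of 6.90 on AB61 replicate 2, against 8.18 and 7.99 on the other AB61 arrays. Without that array H4C1 stood at -0.25 after AB61, and H4C13, the brightest H4 gene, at -0.21. H4C7, on a dim probe set, stood at 0.16, 0.14 and 0.04, and H4C13 at -0.33, -0.11 and -0.20, with all arrays fitted.

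**Figure D3:**
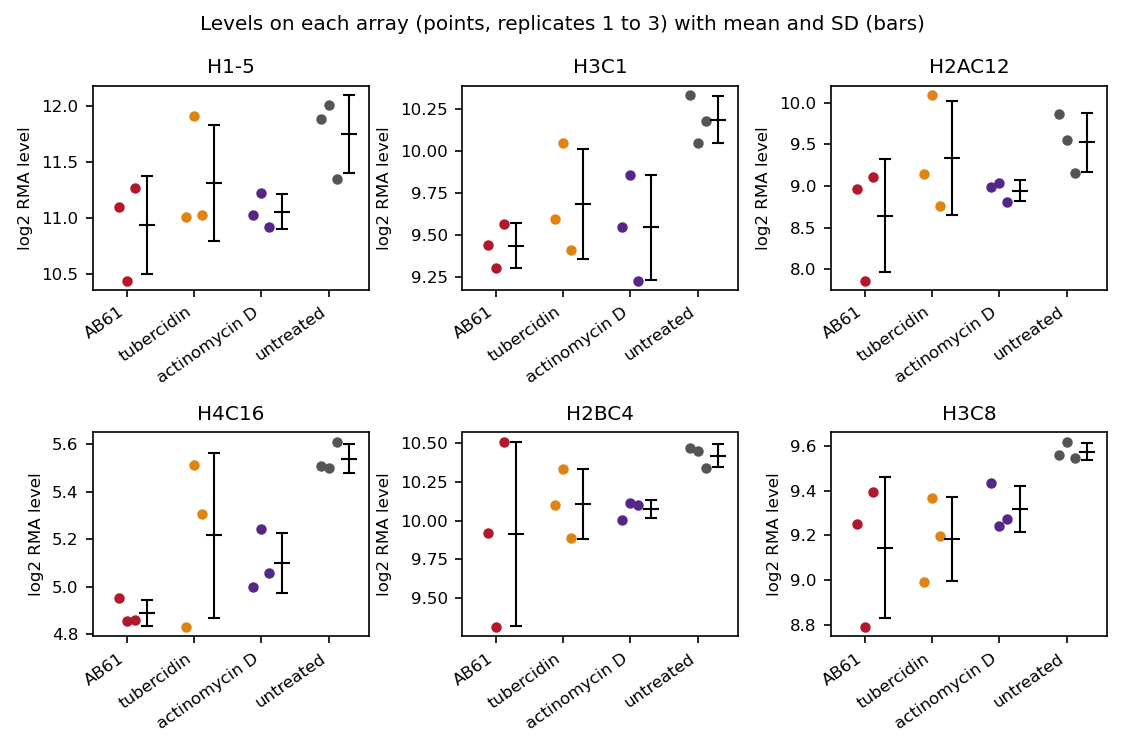
Log2 RMA levels of H1-5, H3C1, H2AC12, H4C16, H2BC4 and H3C8 on each array (points, replicates 1 to 3), by group, with mean and SD as bars (n = 3). Each panel has its own axis, which does not start at 0. All AB61 points of H1-5, H3C1, H2AC12, H4C16 and H3C8 lie below the untreated points, and tubercidin replicate 2 is the highest tubercidin point in all 6 panels.

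After tubercidin, the histone genes stood only slightly below untreated cells. The median log2 difference was -0.11, or 0.924 times the untreated level, with 36 of 50 members below 0, against a median of -0.02 and 57% below 0 over all genes. No member passed the test in limma, where 13 of all genes (0.0913%) were called. At unadjusted p under 0.05, 5 members (10%) were lower, against 3.53% of all genes, and none higher, against 5.27%. In 5 members, against 6.58% of all genes, all tubercidin arrays lay below all untreated arrays, and in none did they all lie above, against 7.43%. By type the medians were -0.15 for H1, -0.13 for H2A, -0.09 for H2B, -0.13 for H3 and -0.08 for H4. Without tubercidin replicate 3 the H2A and H4 medians lay above 0, at 0.07 and 0.03, and the H1, H2B and H3 medians were -0.03, -0.05 and -0.05. The H4 median was also 0.03 without untreated replicate 1.

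The 3 tubercidin arrays differed in direction. Their histone medians relative to the untreated mean were -0.18, 0.15 and -0.29, with 39, 11 and 46 members below it, so tubercidin replicate 2 stood above all untreated arrays and the other 2 below them. Without replicate 2 the median was -0.23 with 46 members below 0 and 11 (22%) lower at unadjusted p, against 5.07% of all genes. Without replicate 3 it was -0.02 with 27 below 0 and 3 (6%) lower, against 2.38%. Leaving out tubercidin replicate 1 or untreated replicate 2 left 2 (4%) lower at unadjusted p, against 2.75% and 2.54% of all genes. Leaving out AB61 replicate 1, actinomycin D replicate 3 or untreated replicate 1 left 3 (6%), against 3.36%, 3.3% and 3.67%. Each of the 3 rescalings of the arrays also gave 3, against 3.62% to 4.23% of all genes. The replicate block in only these 2 groups gave 10 (20%), against 6.04% of all genes, and array weights gave 14 (28%), against 7.2%. The lowest member, H2BC21, had 7.02, 8.19 and 7.88 after tubercidin and 8.14, 8.48 and 8.58 in untreated cells. Its difference of -0.70 (SE 0.34, limma adjusted p 0.617) rests on the first of these arrays and was -0.36 without it. After AB61 H2BC21 stood at -0.22 and after actinomycin D at -0.08. Next after tubercidin came H3C1, H2AC11, H1-5, H2AC17 and H3C8, with the values given above. H2BC3, H2AC15 and H2BC14 stood highest, at 0.31, 0.28 and 0.27, with limma adjusted p of 0.938, 0.807 and 0.677. For H2BC3, untreated replicates 1 and 2 themselves lay at 0.40 and -0.41 relative to the untreated mean.

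After actinomycin D at 1 nM, 41 of 50 histone genes stood below untreated cells, with a median log2 difference of -0.16, or 0.897 times the untreated level. Over all genes the median was 0.0024 and 49.2% stood below 0. No member passed the test in limma, where 17 of all genes (0.119%) were called. At unadjusted p under 0.05, 8 members (16%) were lower, against 4.5% of all genes, and none higher, against 4.89%. In 20 members all 3 actinomycin D arrays lay below all untreated arrays, against 7.22% of all genes, and in none did they all lie above, against 7.23%. The histone medians of the 3 arrays were -0.14, -0.14 and -0.29, each below that of every untreated array and lowest on replicate 3, with 35, 38 and 45 members below the untreated mean. The count at unadjusted p was 2 (4%) without actinomycin D replicate 3 or without untreated replicate 2, against 3.56% and 3.15% of all genes. Without untreated replicate 1 it was 3 (6%), against 3.91%. It was 16 (32%) in a fit on only the 2 groups compared, against 5.67% of all genes, 15 (30%) with the replicate block in those groups, against 7.43%, and 20 (40%) with array weights, against 13.7%. By type the medians were -0.24 for H1, -0.15 for H2A, -0.08 for H2B, -0.22 for H3 and -0.20 for H4. The H2B median lay above 0 without actinomycin D replicate 3, at 0.05, and with array weights, at 0.03. H1-5, H3C1, H2AC12, H1-2, H2AC16 and H4C16 were the lowest 6 members. H2BC10, on a dim probe set, stood highest at 0.60 (SE 0.42), with levels of 4.45, 3.06 and 4.36 after actinomycin D and 2.78, 3.01 and 4.28 in untreated cells. Its arrays were scattered in both groups and overlapped. H2BC3, scattered among the untreated arrays as given above, and H2BC1 followed at 0.39 and 0.18.

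**Figure D4:**
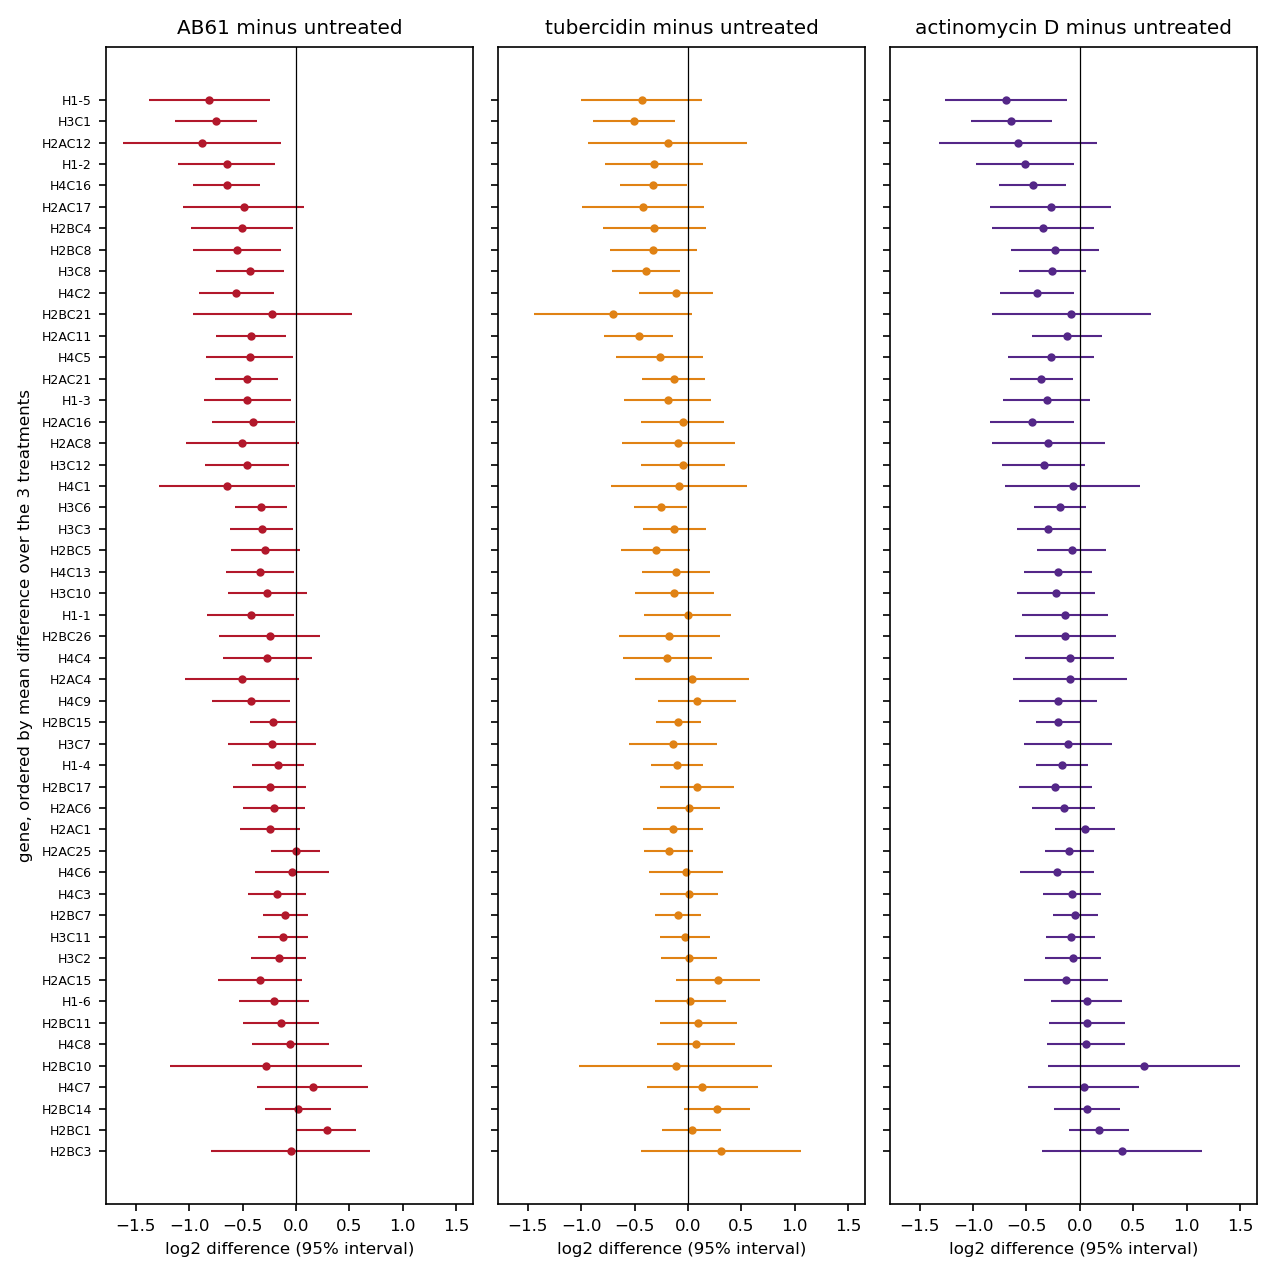
Fitted log2 difference (horizontal axis, points, with 95% intervals as lines) of each of the 50 histone genes (vertical axis, ordered by the mean over the 3 treatments) after AB61, tubercidin and actinomycin D, each minus untreated cells. After AB61 47 points lie below 0, after tubercidin 36 and after actinomycin D 41, and the widest intervals belong to H2BC10. The 3 panels share the untreated arrays, and the intervals are not adjusted for the number of genes.

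Across the treatments, which share their untreated arrays, 34 members stood below 0 after all 3, 9 after 2, 4 after 1 and 3 after none. This count too was made for the members only, with no share over all genes beside it. The members were also read by their place in the genome. The first chromosome 6 cluster had medians of -0.28, -0.11 and -0.13 after AB61, tubercidin and actinomycin D, the second -0.34, -0.05 and -0.21, and the 4 genes on chromosome 1 -0.23, -0.18 and -0.12. The testis genes H1-6, H2AC1 and H2BC1 had medians of -0.21, 0.02 and 0.06. The 4 genes whose annotated span exceeds 1000 bases, H2BC4, H2BC5, H2BC21 and H3C6, had medians of -0.31, -0.31 and -0.13. Among the 7 divergent H2A and H2B pairs, the H2A gene stood lower than its H2B partner in 4 pairs after each treatment. Within a pair the values could differ widely, as for H2AC11 and H2BC11 after tubercidin, at -0.46 and 0.10.

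The pair of related nucleosides was compared directly. The concentrations differ, 250 nM for AB61 and 550 nM for tubercidin, though both were 5 times the IC50 for 3 h. AB61 minus tubercidin gave a median of -0.19 over the members, with 44 of 50 below 0, against 0.04 and 41.1% over all genes. No member and none of all genes (0%) passed the test in limma. At unadjusted p under 0.05, 8 members (16%) were lower, against 1.92% of all genes, and none higher, against 3.15%. H2AC15 had the lowest p, with 10.56, 10.33 and 10.55 after AB61 and 10.99, 11.44 and 10.85 after tubercidin, a difference of -0.61 (95% interval -1.01 to -0.22, limma adjusted p 0.793). The AB61 arrays lay below all tubercidin arrays for this gene. H4C9 followed at -0.51 (95% interval -0.87 to -0.14), with overlapping arrays. H4C16 differed by -0.33 (95% interval -0.64 to -0.01), and the interval of H2AC12 ran from -1.43 to 0.05. Without tubercidin replicate 2, the high array, the median of this comparison was -0.08, with 35 of 50 members below 0. In that fit 1 member (2%) was lower at unadjusted p, against 1.22% of all genes. Without AB61 replicate 2 the median was -0.07, with 31 below 0 and 2 (4%) lower, against 0.991%. Without AB61 replicate 3 it was -0.30, with 14 (28%) lower, against 7.79%, and with array weights it was -0.09, with 32 below 0.

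AB61 minus actinomycin D gave a median of -0.14, with 45 of 50 members below 0, against 0.02 and 43.3% over all genes. This direction rests on AB61 replicate 2: without it the median was 0.04, with 19 of 50 members below 0. No member and none of all genes (0%) passed the test in limma, and 1 member, H2AC1, was lower at unadjusted p under 0.05, against 0.499% of all genes, and none higher, against 1.33%. The count lower was 7 without AB61 replicate 3, against 3.06% of all genes. Tubercidin minus actinomycin D gave a median of 0.08, with 18 of 50 members below 0 against 54.1% of all genes. This direction rests on tubercidin replicate 2: without it the median was -0.04, with 34 of 50 members below 0. In that fit 5 members (10%) were lower at unadjusted p, against 0.738% of all genes. With array weights the median was also -0.04, with 30 below 0. No member and none of all genes (0%) passed in limma. At unadjusted p under 0.05, H2AC11 was lower, against 0.724% of all genes, and H2AC15 and H2AC16 were higher, against 0.569%. H2AC11 differed by -0.35 (95% interval -0.67 to -0.02) and H2AC15 by 0.41 (95% interval 0.02 to 0.80). These intervals are wide relative to the differences, and an adjusted p that misses the threshold does not show that the compounds act alike.

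**Figure D5:**
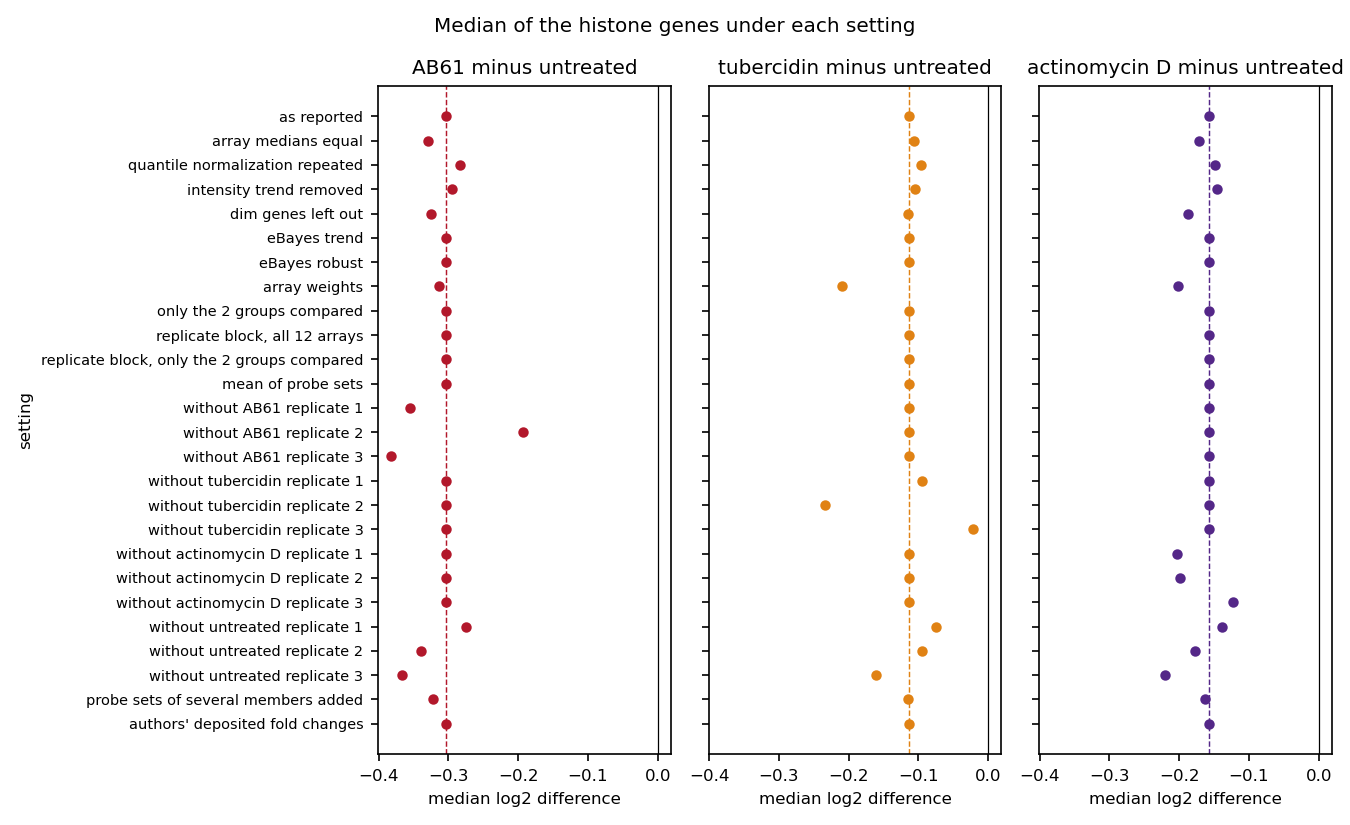
Median log2 difference over the 50 histone genes (horizontal axis) as reported and under each alternative setting (vertical axis), for AB61, tubercidin and actinomycin D minus untreated cells, with the dashed line at the value as reported and the solid line at 0. All medians lie below 0, though several settings return the value as reported by construction. The largest moves from the dashed line include the AB61 median without AB61 replicate 2 (-0.19). The others are the tubercidin median without tubercidin replicate 2 (-0.23), with array weights (-0.21) and without tubercidin replicate 3 (-0.02).

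The genes that make, process and degrade histone mRNAs were read from lists in the same fit. No gene of these lists was called in any treatment. SLBP, the stem-loop binding protein, stood at -0.36, -0.22 and -0.24 after AB61, tubercidin and actinomycin D (SE 0.16, limma adjusted p 0.399, 0.854 and 0.782). LSM10 stood at -0.27, -0.13 and -0.24, LSM11 at -0.20, -0.02 and -0.02, and CPSF3, the nuclease that makes the cut, at -0.31, -0.02 and -0.08. Without AB61 replicate 2 the AB61 differences were -0.16 for SLBP, -0.02 for LSM10, -0.30 for LSM11 and -0.12 for CPSF3. The 11 measured genes of stem-loop binding and 3' processing had medians of -0.13, -0.02 and -0.08, and 10, 7 and 8 of them stood below 0. For 7 genes of histone gene transcription the medians were -0.09, -0.05 and -0.01. Among them, CCNE1 and CCNE2, the cyclins that drive entry into S phase, stood at -0.26, -0.07 and 0.04 and at 0.14, 0.28 and 0.23. CASP8AP2, which links transcription and processing in the nuclear body, stood at -0.18, -0.02 and -0.25. Of 8 decay genes, the medians were -0.14, -0.0011 and -0.09. TUT4, a uridylyltransferase of histone mRNA decay, stood at -0.41, -0.09 and -0.25, and XRN1, an exonuclease, at -0.21, -0.07 and -0.23. Without AB61 replicate 2 TUT4 stood at -0.22 and XRN1 at -0.11 after AB61.

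Replacement histones, whose mRNAs are mostly polyadenylated and made outside S phase too, lay near 0. Their 8 measured genes had medians of -0.06, 0.04 and -0.02 after AB61, tubercidin and actinomycin D. H2AX stood at 0.06, 0.10 and 0.04, H2AZ1 at -0.09, 0.01 and -0.04, H2AZ2 at -0.21, -0.07 and -0.07, and MACROH2A2 at -0.15, 0.05 and -0.13. The 21 histone chaperones had medians of -0.09, 0.01 and -0.04, with 18, 10 and 14 below 0. NASP, a chaperone of histones H3 and H4, stood at -0.55, -0.26 and -0.48 (SE 0.17, limma adjusted p 0.203, 0.800 and 0.362). It was the lowest of the chaperones after AB61 and actinomycin D but not after tubercidin. CHAF1A, the large subunit of the chromatin assembly factor, stood at -0.46, -0.36 and -0.47.

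DNA replication and S phase genes had medians nearer 0 than the histone genes in each treatment. The 40 measured genes had medians of -0.09, -0.03 and -0.06 after AB61, tubercidin and actinomycin D, with 27, 23 and 25 below 0 and none called in limma. At unadjusted p under 0.05, 6 (15%) were lower after AB61, against 6.25% of all genes, 2 (5%) after tubercidin, against 3.53%, and 4 (10%) after actinomycin D, against 4.5%. In the other direction 2 (5%) were higher after tubercidin, against 5.27% of all genes, and none after AB61 or actinomycin D, against 5.82% and 4.89%. The median after AB61 was -0.02 without AB61 replicate 2, and that after tubercidin was 0.03 without tubercidin replicate 1. By array the medians were -0.04, -0.19 and -0.02 after AB61, -0.09, 0.07 and -0.07 after tubercidin, -0.02, -0.05 and -0.03 after actinomycin D, and 0.08, -0.02 and -0.06 in untreated cells. AB61 replicate 2 was the lowest and tubercidin replicate 2 the highest treated array here too, as for the histone genes. GMNN, the replication licensing inhibitor geminin, stood at -0.59, -0.40 and -0.48 (SE 0.15, limma adjusted p 0.133, 0.399 and 0.275), and its limma adjusted p after AB61 was 0.0426 without AB61 replicate 3. UHRF1, needed to maintain DNA methylation in S phase, stood at -0.48, -0.26 and -0.22, and RRM2, a subunit of ribonucleotide reductase, at 0.29, 0.07 and 0.18.

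Marker lists of the cell line's own lineage and of other cell types were read in the same way. The 13 T-lymphoblast markers had medians of -0.01, -0.04 and -0.02 after AB61, tubercidin and actinomycin D. Of 14 markers of other cell types, 12, 4 and 12 stood above 0, with medians of 0.15, -0.03 and 0.07. Their signal summed on the linear scale ranged over the arrays from 741 to 983 after AB61, 727 to 823 after tubercidin, 771 to 896 after actinomycin D and 773 to 819 in untreated cells. No marker was called, these values have no true 0, and their part in the histone result was not tested.

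The 3 probe sets that carry only histone symbols, several each, did not move in one direction. After AB61 they stood at 2.25, -0.43 and -1.68, with limma adjusted p of 0.345, 0.459 and 0.437. The first and last are dim, at mean levels of 3.06 and 4.91, and the remaining one, at 9.76, stood at -0.43, -0.16 and -0.24 after AB61, tubercidin and actinomycin D.

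The authors' deposited table of AB61 against untreated cells gave 18 members (36%) lower at an unadjusted p under 0.05, against 5.64% of all genes in it. The authors' deposited table for tubercidin gave 4 (8%), against 3.2% of all genes, and the authors' deposited table for actinomycin D gave 7 (14%), against 4%. After Benjamini-Hochberg adjustment of the p-values in the authors' deposited tables over the same genes, no member was under 0.05. The lowest p of a member in the authors' deposited table for AB61 was 0.000636, for H4C16.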

How the data were processed

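RNA was measured on 12 whole-transcript arrays. Per the labels' protocols, total RNA was extracted with Trizol and 200 ng was labelled. The authors used RMA, oligo and limma, per the submitters' processing notes, in versions that no source used here gives. Levels were deposited as log2 RMA values of 22011 probe sets for each array. The authors' comparison files hold group means headed as intensity per the file headers, on the log2 scale by their values, with log2 fold changes and unadjusted p-values deposited beside them.

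Symbols came from the platform annotation: 14432 probe sets carried 1 symbol, 2408 several and 5171 were not listed, and 14404 of the first matched RefSeq by gene ID. The brightest probe set was kept for the 197 genes with several, giving 14232 genes, with no filter on dim ones. No genome build is given in the sources used here, and the coordinates are RefSeq's.

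One model of 4 groups was fitted to all 12 arrays with limma 3.58.1 in R 4.3.3 (lmFit and eBayes, 8 residual and 4.91 prior degrees of freedom), with 6 contrasts and two-sided p-values adjusted by Benjamini-Hochberg over all genes, threshold 0.05. The median SE of a log2 difference was 0.17 for members and 0.13 for all genes. The number of arrays limits the precision. Group medians carry no p. Same-numbered arrays deviated together for AB61 and untreated cells (r = 0.158, 0.355 and 0.268 over all genes), and the number was read as a pairing for these. The labels state no pairing and the deviations of arrays with different numbers were not compared, so these values do not establish one. The other treatments each had a value under 0.1 with untreated cells and were not read as paired. Their values were 0.086, 0.241 and 0.421 for tubercidin and 0.204, 0.046 and 0.305 for actinomycin D. Figures were drawn with matplotlib 3.10.9.

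The members, gene lists, tests and the naming rule were chosen with earlier results of these data known. The rule names the 6 lowest and 3 highest members of each treatment, all H1 genes, the brightest and lowest member of each type, and 2 genes of each companion list with 11 genes always named. Of these 11, NPAT, H3-3A, H3-3B and PCNA had no single-symbol probe set. Other members were named after their values were seen. Alternatives changed the array scaling, the filter on dim genes, the eBayes settings, array weights, which arrays were fitted, the replicate block and the probe set of a gene, or left out each array in turn.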

Additional observations from a re-analysis of the deposited data

How the results depend on the processing

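The median of the histone genes kept its sign in all alternatives for each treatment against untreated cells. Several could not change it, because they return the same median by construction. These were the eBayes settings, the fits on only the 2 groups compared, the replicate blocks and the mean of probe sets. Leaving out an array of another treatment and the authors' deposited fold changes also gave the same median. No alternative other than array weights, the replicate block over all 12 arrays and the fit without tubercidin replicate 1 called a histone gene. With each array left out in turn the median ranged from -0.38 (without AB61 replicate 3) to -0.19 (without AB61 replicate 2) for AB61, from -0.23 to -0.02 for tubercidin and from -0.22 to -0.12 for actinomycin D. The number of histone genes called after AB61 ranged from 0 to 1 in these fits. Over all genes the calls ranged from 0 to 98 for AB61, 2 to 33 for tubercidin and 1 to 25 for actinomycin D, against 24, 13 and 17 as reported. Other settings also moved the calls over all genes. Equal array medians gave 2 for AB61 and 3 for actinomycin D, and removal of the intensity trend gave 3 for actinomycin D. Leaving out genes in the lowest 25% of signal, 5 members among them, gave 49 for AB61 and 22 for tubercidin, where fewer genes were tested. An eBayes trend gave 14 for AB61. Fits on only the 2 groups compared, with fewer arrays, gave 0 for AB61, 1 for tubercidin and 1 for actinomycin D. With the replicate block over all 12 arrays limma called 193, 116 and 130 genes for AB61, tubercidin and actinomycin D. After AB61 this held 1 histone gene (2%), H4C16, against 1.36% of all genes. With the replicate block in only the 2 groups compared limma called 11 for AB61 and 9 for actinomycin D. The block changed no other histone call. Array weights, whose estimation stopped before convergence and whose values ran from 0.187 to 12.2, gave 2854 genes for AB61, 72 for tubercidin and 1669 for actinomycin D. Among histone genes they gave 19 (38%) for AB61, against 20.1% of all genes, and 5 (10%) for actinomycin D, against 11.7%. For AB61 against tubercidin they gave 2 (4%), against 16.6% of all genes. For AB61 against actinomycin D they gave 10 (20%), against 35.8%. The median of AB61 minus actinomycin D changed sign without AB61 replicate 2 (0.04), and that of tubercidin minus actinomycin D without tubercidin replicate 2 (-0.04) and with array weights (-0.04). Where no construction of the alternative is named, the cause was not tested.

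Some named genes changed sign, none of them called as reported. With the array medians set equal, this held for H2BC14 after AB61 at -0.0060 and H1-1 after tubercidin at 0.0045. With quantile normalization repeated, this held for H2AZ1 after AB61 at 0.0046. With each array's intensity trend removed, this held for H1-1 after tubercidin at 0.017 and LSM11 after tubercidin at 0.010. With array weights, this held for CCNE2 after AB61 at -0.017, H3C2 after tubercidin at -0.063, H1-6 after tubercidin at -0.075, H2AZ1 after tubercidin at -0.085, XRN1 after tubercidin at 0.053 and CCNE1 after actinomycin D at -0.035. With 1 array left out in turn, the log2 differences that crossed 0 had these ranges. After AB61 they were H2BC14 -0.080 to 0.11, H2AX -0.027 to 0.14, CCNE2 -0.043 to 0.25 and H4C7 -0.065 to 0.30. After tubercidin they were LSM11 -0.088 to 0.092, H3C2 -0.072 to 0.067, H1-6 -0.047 to 0.11, CASP8AP2 -0.058 to 0.011, H2AX -0.0097 to 0.20, H2AZ1 -0.091 to 0.077, CPSF3 -0.083 to 0.052, XRN1 -0.20 to 0.11, MACROH2A2 -0.092 to 0.20, H2AC16 -0.22 to 0.17, H2AC12 -0.57 to 0.10, H1-1 -0.14 to 0.23, LSM10 -0.35 to 0.10, RRM2 -0.073 to 0.15 and H2AZ2 -0.27 to 0.056. After actinomycin D they were CCNE1 -0.036 to 0.074, H1-6 -0.0019 to 0.17, H2AX -0.0040 to 0.12, LSM11 -0.037 to 0.0053, H2AZ1 -0.14 to 0.017, H2AZ2 -0.27 to 0.056 and H2BC14 -0.031 to 0.17. Medians of companion lists that lay near 0 also crossed it. After AB61 the replacement histones reached 0.0014 without AB61 replicate 2. After tubercidin the furthest values past 0 were -0.039 for replacement histones, -0.039 for chaperones, 0.030 for 3' processing and 0.10 for decay genes, and after actinomycin D 0.029 for replacement histones and 0.013 for transcription genes. The cause of these sign changes was not tested.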

Other observations

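Single arrays differed in which histone gene lay furthest from the untreated mean. H2AC12 was lowest on AB61 replicate 2 at -1.66, H3C1 on AB61 replicate 1 at -0.75 and H4C16 on AB61 replicate 3 at -0.68. On the tubercidin arrays the lowest were H2BC21 at -1.38 on replicate 1, H2AC11 at -0.28 on replicate 2 and H3C1 at -0.78 on replicate 3. On the actinomycin D arrays H1-5, H1-2 and H3C1 were lowest, at -0.73, -0.58 and -0.96 on replicates 1, 2 and 3. H2BC10 was the highest member on actinomycin D replicates 1 and 3, at 1.09 and 1.01, and on untreated replicate 3, at 0.93.

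The untreated arrays also differed among themselves in the histone genes. Against the mean of the other untreated arrays, the median over the members was 0.10, 0.02 and -0.10 for untreated replicates 1, 2 and 3. The change between arrays of the same replicate number was -0.21, 0.13 and -0.23 for tubercidin minus untreated cells and -0.22, -0.13 and -0.19 for actinomycin D minus untreated cells, as medians over the 50 members, although for these treatments the number was not read as a pairing.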
